A study of Mus musculus with 620 samples.

Results

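Adipose tissue was set against liver in 8 young control mice from which both organs had been sequenced, so that each animal gave 1 adipose and 1 liver library. These 16 libraries were the ones whose labels name the young control group LT_Y_ctrl of the LT cohort and the tissue Adipose_tissue or Liver, out of 284 libraries of that cohort and 620 of the series. The series is a bulk poly(A) RNA-seq study of mouse tissues under ageing, drug treatment and knockdown of the GLP-1 receptor in the hypothalamus. All 8 mice belong to the young control condition, and no drug or knockdown is named for them in their labels. The labels of these libraries name no strain, sex, age in months, fat depot or feeding state at collection. The depot and the last meal bear on lipid genes, and their part in the results was not tested.

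White adipose tissue stores fatty acids as triglyceride in 1 large droplet per adipocyte, releases them by lipolysis under hormonal control, and secretes hormones such as leptin and adiponectin. Liver also makes fatty acids and triglyceride, but it exports lipid in lipoproteins, burns fatty acids to ketone bodies, makes glucose, and supplies most plasma proteins. The genes of interest were 370 members of 15 lists covering lipid storage, lipogenesis with the linked glucose and oxidation pathways, and secreted factors with their receptors. Of these, 368 were in the table, 360 passed the filter on low counts, and 8 did not (Cidea, Scd3, Scd4, Il6, Itln1, Adm2, Glp1r and Stra6). Gfral and Rbpr2 were not analysed here.

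In units of 1000000 counts, the adipose libraries held 25.3 to 28.1 and the liver libraries 23.8 to 27.9. Levels are given as counts per 1000000 scaled by the trimmed mean of M-values (TMM-scaled CPM), and the first principal component, with 87.8% of the variance, separated the tissues. Marker genes fitted the labels, as 11 of 12 white adipocyte markers were higher in adipose tissue and 12 of 12 hepatocyte markers were lower. Of all genes tested, 39.1% were higher in adipose tissue and 36% lower. The white adipocyte markers summed to 17500 to 41800 CPM in adipose tissue against 3580 to 7440 CPM in liver. The hepatocyte markers summed to 1060 to 5960 CPM in adipose tissue against 149000 to 193000 CPM in liver. Most of the hepatocyte sum in adipose tissue came from Cyp2e1 (1040 to 5950 CPM). The brown fat uncoupler Ucp1 was at 0.05 to 1.02 CPM in adipose tissue, and Zic1, another brown fat marker, had no count there. Of 8 brown adipocyte markers 4 were tested, and 1 was higher in adipose tissue (log2 fold change 7.33), 2 lower and 1 not called. The 8 together summed to 4.98 to 18.8 CPM in adipose tissue against 10.3 to 19 CPM in liver.

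Some adipose libraries stood apart. The one from animal A51 held albumin (Alb) at 254 CPM, against 3.87 to 11.6 CPM in the other 7 adipose libraries and 96400 to 131000 CPM in liver, and it was the highest adipose library for many hepatocyte transcripts. The adipose library of A53 had the lowest Plin1 (353 CPM) and the highest sum of macrophage markers (3050 CPM, against 817 to 2270 CPM in the other 7). Lymphocyte markers were highest in A52 (B and plasma cells, 979 CPM) and in A53 (T and NK cells, 83.8 CPM). The epididymal gene Adam7 reached 9.21 CPM in A57 and 202 CPM in A58, against at most 1.54 CPM in the other 6 adipose libraries. Sequencing batch also differed: all 8 livers and the adipose tissue of A51, A53 and A54 were in batch 3, and the other 5 adipose libraries were in batch 2. Values from the 3 pairs within batch 3 are therefore given beside the main results. In whole tissue, fewer cells of a type and less RNA per cell cannot be told apart.

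Most genes differed between the organs. With edgeR's quasi-likelihood test, paired by animal and adjusted by the Benjamini-Hochberg method, 6129 of 15673 genes were higher in adipose tissue (39.1%) and 5635 were lower (36%) at an adjusted p under 0.05. Adding a difference of at least 8-fold left 1631 higher (10.4%) and 1255 lower (8.01%). Every adipose library lay above every liver library for 4050 genes (25.8%) and below for 3531 (22.5%). Among the 360 members tested, 122 were higher and 211 lower, of which 70 and 131 passed 8-fold. All 332 of these calls that had a value within batch 3 kept their direction there, and 306 were called there too. Scaling by total counts in place of TMM raised the median log2 fold change of all genes to 1.05, against 0.06 with TMM. Small falls that it turned are therefore given with that scaling, beside the gene or in the last section. Total counts called 10820 of the 15673 genes higher in adipose tissue and 2464 lower, so list counts under total counts belong beside these. The shares of 39.1% and 36% are those of the main fit, and none are given for batch 3 alone.

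**Figure D1:**
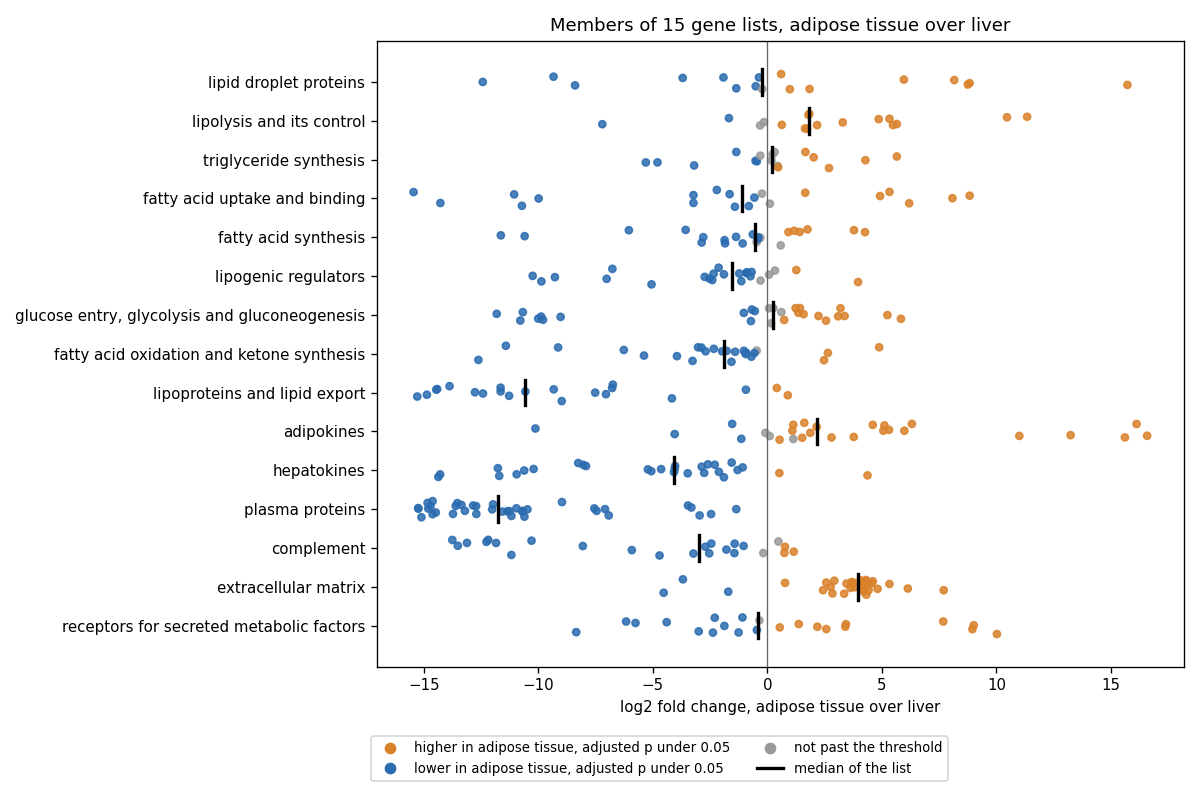
Log2 fold change of each tested member, adipose tissue over liver, in 15 lists of genes. Points are genes, coloured by the edgeR call at an adjusted p under 0.05, and black bars are list medians, which run from -11.78 for plasma proteins to 3.94 for extracellular matrix.

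Promoters of 2 adipokines and 2 plasma proteins are shown as examples of factors that each organ secretes, and they were picked after their motif matches had been seen. They are RefSeq promoters of build GRCm38.p6, from 250 bases before to 50 bases after the annotated start, and 284 of the 370 members had one. Adipoq and Lep encode adiponectin and leptin, Alb encodes albumin, and Hpx encodes the haem carrier haemopexin. Capitals mark matches on either strand to GTTAAT (a half-site of HNF1 factors), AGGTCA (a nuclear receptor half-site) or GGGCGG (a GC box), and each of these promoters held at most 1 match.
Adipoq (chr16:23146286-23146585, + strand): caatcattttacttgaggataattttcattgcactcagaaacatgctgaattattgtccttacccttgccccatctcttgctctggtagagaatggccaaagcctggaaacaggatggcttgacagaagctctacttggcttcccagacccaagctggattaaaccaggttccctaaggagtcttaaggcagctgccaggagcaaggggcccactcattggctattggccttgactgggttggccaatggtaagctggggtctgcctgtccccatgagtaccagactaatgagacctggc
Lep (chr6:29059971-29060270, + strand): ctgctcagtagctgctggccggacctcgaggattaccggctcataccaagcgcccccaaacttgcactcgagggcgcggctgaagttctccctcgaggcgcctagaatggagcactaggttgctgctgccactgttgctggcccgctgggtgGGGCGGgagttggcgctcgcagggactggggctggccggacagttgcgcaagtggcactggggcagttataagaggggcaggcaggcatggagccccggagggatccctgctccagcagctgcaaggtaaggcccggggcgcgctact
Alb (chr5:90460620-90460919, + strand): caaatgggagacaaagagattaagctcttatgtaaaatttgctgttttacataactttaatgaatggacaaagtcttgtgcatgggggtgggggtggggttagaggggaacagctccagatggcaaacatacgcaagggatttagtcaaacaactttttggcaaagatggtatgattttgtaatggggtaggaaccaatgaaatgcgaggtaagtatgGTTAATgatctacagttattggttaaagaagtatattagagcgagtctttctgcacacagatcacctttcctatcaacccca
Hpx (chr7:105600067-105600366, - strand): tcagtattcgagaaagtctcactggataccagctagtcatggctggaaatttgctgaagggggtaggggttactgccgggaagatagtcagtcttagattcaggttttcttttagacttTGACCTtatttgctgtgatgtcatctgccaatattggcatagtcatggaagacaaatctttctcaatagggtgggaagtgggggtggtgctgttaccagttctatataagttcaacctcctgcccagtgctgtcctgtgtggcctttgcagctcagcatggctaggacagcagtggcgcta

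GTTAAT was in the promoters of 1 of 23 adipokines (4.35%) and 10 of 30 plasma proteins (33.3%), against 8.24% of 27025 genes. AGGTCA was in 2 of the 23 adipokines (8.7%) and 15 of the 30 plasma proteins, against 18.1% of all genes. GGGCGG was in 14 of the 23 adipokines (60.9%) and 2 of the 30 plasma proteins (6.67%), against 38.2%. These shares were not particular to the adipokines and plasma proteins. The share with GGGCGG was 57.9% to 78.6% in the adipokines and the 10 other lists outside the lipoproteins, hepatokines, plasma proteins and complement. The complement promoters held GTTAAT in 37.5% and GGGCGG in 6.25%. The motifs were also picked after their matches had been seen, so the shares are a description and show no binding.

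Lipid droplet protein genes included some far higher and some far lower in adipose tissue. Of 17 tested, 8 were higher and 8 lower, close to the shares of all genes (39.1% and 36%), with a median log2 fold change of -0.23, against 0.06 for all genes. Perilipin 1 (Plin1), the droplet coat that gates lipolysis in adipocytes, ranged from 353 to 1250 CPM with a median of 1040 CPM in adipose tissue, and had 2 counts in all 8 livers together. The ratio of its summed counts was 70900 (95% counting interval 19600 to 585000), and the low adipose value was that of A53. Cidec, which fuses droplets into large ones, was at 1330 to 3170 CPM (median 2010) in adipose tissue against 1.89 to 7.88 CPM (median 5.64) in liver (log2 fold change 8.75 ± 0.34, SE; adjusted p = 1.97e-09). Perilipin 4 (Plin4) was at 1260 to 2900 CPM in adipose tissue against 1.61 to 26.1 CPM in liver (8.16 ± 0.48), and caveolin 1 (Cav1), a membrane coat protein that also reaches droplets, at 1300 to 3210 CPM (median 2580) in adipose tissue against 2.54 to 6.53 CPM (median 5.99) in liver (8.83 ± 0.31). None of these groups overlapped.

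The liver had its own set of droplet genes. Perilipin 2 (Plin2), the widespread perilipin, was lower in adipose tissue in 8 of 8 animals, at 169 to 351 CPM with a median of 252 CPM against 339 to 1280 CPM with a median of 581 CPM in liver (-1.36 ± 0.19, adjusted p = 5.17e-05). The ranges overlapped by 1 liver, that of A54. Perilipin 5 (Plin5), found in tissues that oxidize fat, was at 2.12 to 6.72 CPM in adipose tissue against 29.7 to 121 CPM in liver (-3.7 ± 0.4). The liver droplet enzyme Hsd17b13 was at 0 to 1.44 CPM (median 0.0383) in adipose tissue against 400.0 to 874 CPM (median 503) in liver (-12.43 ± 0.92, or -13.55 without A51, the highest adipose library). Cideb, a relative of Cidec that acts on lipoprotein loading, was at 0.0561 to 3.05 CPM (median 0.423) in adipose tissue against 201 to 274 CPM (median 226) in liver (-8.4 ± 0.73), although it shares exon bases with Nop9 and the kit did not mark strand. Fitm1, which helps to form droplets, was at 0 to 0.111 CPM (median 0.0281) in adipose tissue against 10.3 to 62 CPM (median 25.6) in liver (-9.34 ± 0.47). The falls of Plin3 (-0.51) and Rab18 (-0.37) turned to rises of 0.48 and 0.63 with total counts, which called 11 of the list higher and 5 lower. Within batch 3, 7 were higher and 6 lower. The brown fat gene Cidea was below the filter, at 0.104 to 5.16 CPM in adipose tissue against 0 to 0.39 CPM in liver.

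**Figure D2:**
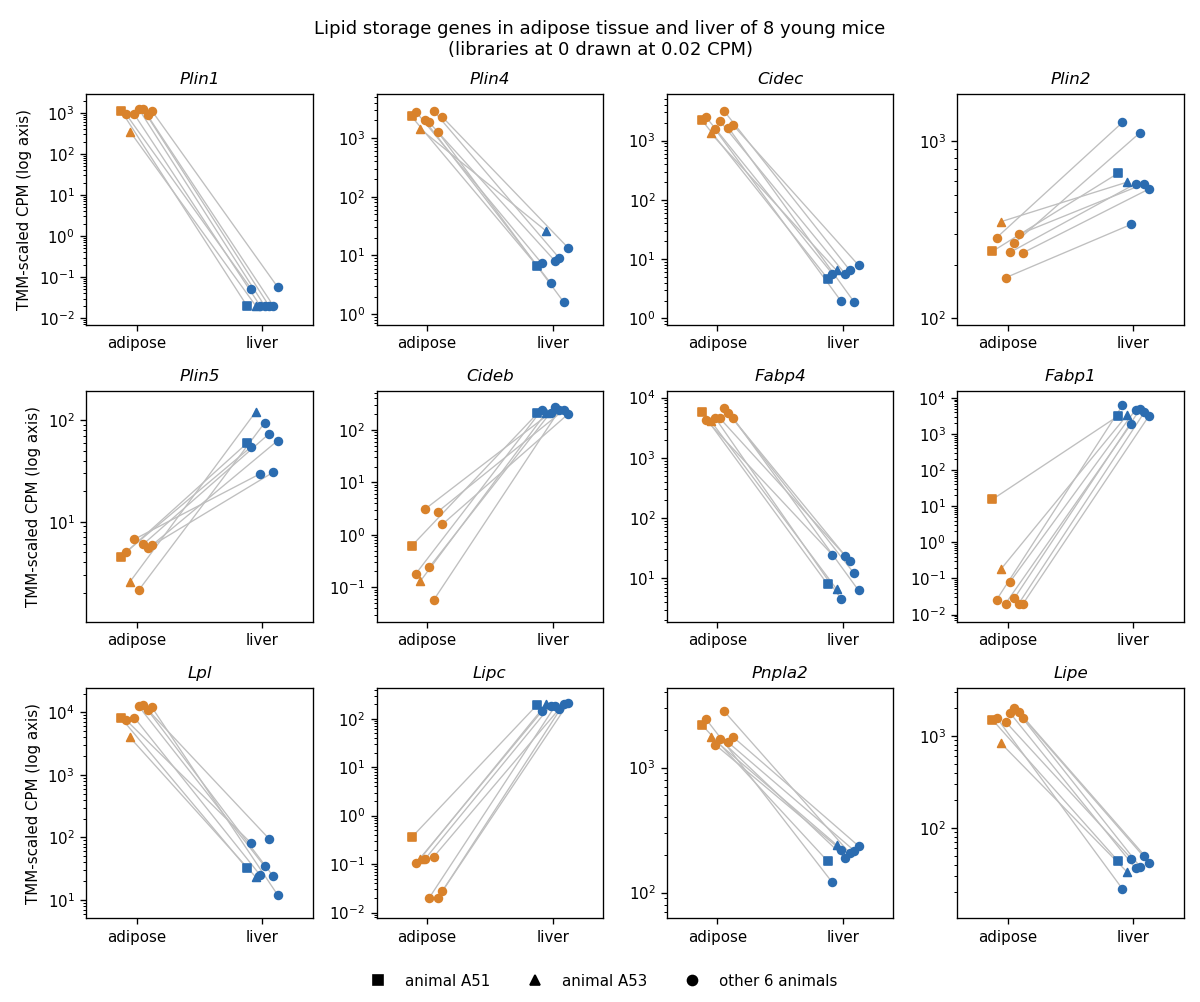
TMM-scaled CPM (log axis) of 12 lipid storage genes in adipose tissue (orange) and liver (blue), with lines joining the 2 libraries of an animal. Squares mark A51 and triangles A53. The tissues do not overlap in any panel but Plin2, and A51 is the highest adipose library for Fabp1 and Lipc.

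The machinery that breaks triglyceride down was mostly higher in adipose tissue. Of 17 genes of lipolysis and its control, 13 were higher and 2 lower, against 39.1% and 36% of all genes. The median log2 fold change was 1.83, and 12 were higher and 2 lower within batch 3. The 3 lipases act in sequence. Adipose triglyceride lipase (Pnpla2) was at 1530 to 2840 CPM in adipose tissue against 121 to 241 CPM in liver (3.29 ± 0.23), and hormone-sensitive lipase (Lipe) at 832 to 2030 CPM in adipose tissue against 21.7 to 50.2 CPM in liver (5.33 ± 0.23). Monoglyceride lipase (Mgll) differed less, at 564 to 1140 CPM in adipose tissue against 163 to 496 CPM in liver (1.73 ± 0.26, adjusted p = 8.45e-05), and within batch 3 its difference of 1.16 had an adjusted p of 0.0616. Of the proteins that steer Pnpla2, the activator Abhd5 was higher (1.79 ± 0.12). The inhibitor G0s2 was at 60.7 to 113 CPM in adipose tissue against 35.1 to 141 CPM in liver, with no difference called (adjusted p = 0.46). Total counts called G0s2 higher (0.84, adjusted p = 0.00145). Pnpla3, a droplet protein related to Pnpla2, was at 39.8 to 335 CPM in adipose tissue against 1.43 to 9.71 CPM in liver (5.48 ± 0.26).

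Receptors that switch lipolysis on or off were also higher in adipose tissue. The beta-3 adrenergic receptor Adrb3, which starts lipolysis, was at 437 to 1520 CPM (median 1010) in adipose tissue against 12.4 to 29.7 CPM (median 18.2) in liver (5.65 ± 0.21). Adrb1 was higher as well (1.64), at a median of 7.88 CPM in adipose tissue against 2.33 CPM in liver. The lactate receptor Hcar1, which restrains lipolysis, was at 54.6 to 217 CPM (median 104) in adipose tissue against 0 to 0.115 CPM (median 0.0266) in liver (11.34 ± 0.3). The glycerol that lipolysis sets free leaves through aquaporin 7 and enters hepatocytes through aquaporin 9. Aqp7 was at 79.6 to 168 CPM (median 124) in adipose tissue against 0 to 0.291 CPM (median 0.0821) in liver (10.46 ± 0.39), and Aqp9 was at 2.1 to 9.02 CPM (median 4.73) in adipose tissue against 554 to 779 CPM (median 717) in liver (-7.21 ± 0.28). Lysosomal acid lipase (Lipa) was the other gene that was lower, at 71.5 to 136 CPM (median 86) in adipose tissue against 223 to 350.0 CPM (median 294) in liver (-1.68 ± 0.13).

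Of 17 triglyceride synthesis genes, 6 were higher in adipose tissue, 6 lower and 5 not called, near the shares of all genes (39.1% higher and 36% lower), with a median log2 fold change of 0.22. Total counts, which called 10820 of all 15673 genes higher and 2464 lower, moved this to 13 higher and 4 lower. Batch 3 alone gave 5 higher and 4 lower. For the first acylation, Gpat3 was at 64 to 216 CPM (median 139) in adipose tissue against 5.11 to 13.4 CPM (median 6.4) in liver (4.28 ± 0.27), while the mitochondrial enzyme Gpam was at 175 to 493 CPM in adipose tissue against 278 to 573 CPM in liver (-0.46 ± 0.14), a fall that became 0.54 with total counts and lost its call within batch 3 (adjusted p = 0.276) and without the pairing by animal (-0.43, adjusted p = 0.0729). Agpat3, of the next step, was lower, at 101 to 174 CPM (median 136) in adipose tissue against 302 to 421 CPM (median 364) in liver (-1.36 ± 0.14). Among lipins, Lpin2 was at 11.5 to 23.6 CPM (median 14.9) in adipose tissue against 209 to 646 CPM (median 486) in liver (-4.8 ± 0.21), and Lpin1 at 217 to 630.0 CPM in adipose tissue against 183 to 1090 CPM in liver (adjusted p = 0.493).

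The last step is shared by Dgat1 and Dgat2. Dgat1 was at 81.4 to 316 CPM (median 197) in adipose tissue against 22.3 to 35.4 CPM (median 31.9) in liver (2.69 ± 0.22), whereas Dgat2 was at 356 to 2640 CPM in adipose tissue against 781 to 1300 CPM in liver (0.18 ± 0.28, adjusted p = 0.569). The adipose range of Dgat2 spanned that of liver. The monoacylglycerol enzyme Mogat1 was at 7.46 to 35.6 CPM (median 23.5) in adipose tissue against 0.215 to 1.69 CPM (median 0.332) in liver (5.65 ± 0.41). Glycerol kinase (Gk), which lets liver reuse glycerol, was at 7.46 to 42.4 CPM (median 14.2) in adipose tissue against 104 to 205 CPM (median 134) in liver (-3.2 ± 0.37). The glycerol phosphate enzyme Gpd1 was at 175 to 865 CPM in adipose tissue against 259 to 763 CPM in liver (adjusted p = 0.592).

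Genes of fatty acid uptake and binding included some far higher and some far lower in adipose tissue. Of 20 genes, 6 were higher in adipose tissue and 12 lower, against 39.1% and 36% of all genes. The median log2 fold change was -1.12. Total counts gave 9 higher and 10 lower, and batch 3 alone gave 6 and 12. Lipoprotein lipase (Lpl), which frees fatty acids from circulating lipoproteins, was at 3980 to 13200 CPM (median 9610) in adipose tissue against 12 to 95.8 CPM (median 28.5) in liver (8.08 ± 0.47), and its liver relative Lipc at 0 to 0.354 CPM in adipose tissue against 141 to 206 CPM in liver (-10.72 ± 0.47). The scavenger receptor Cd36 was at 2170 to 5160 CPM (median 3750) in adipose tissue against 37.7 to 89.7 CPM (median 43.6) in liver (6.19 ± 0.27). Fabp4, the fatty acid carrier of adipocytes, was at 4100 to 6770 CPM (median 4630) in adipose tissue against 4.57 to 24.7 CPM (median 9.94) in liver (8.83 ± 0.43).

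Liver-type uptake genes were near 0 in adipose tissue. Fabp1, the hepatocyte carrier, had a median of 0.027 CPM in adipose tissue and a highest value of 15.4 CPM in A51, against 1930 to 6210 CPM in liver (-15.45 ± 1.44, or -16.39 without A51). The bile acid and fatty acid ligase Slc27a5 was at 0 to 2.91 CPM (median 0.0269) in adipose tissue against 1390 to 1720 CPM (median 1560) in liver (-14.28 ± 1.02, or -15.47 without A51). Slc27a2 was at 0.0265 to 9.14 CPM (median 2.43) in adipose tissue against 1720 to 2860 CPM (median 2480) in liver (-11.06 ± 1.3, or -11.76 without A54 and -11.71 without A57), and it shares exon bases with Gm26697. The acyl-CoA synthetase Acsl1 was at 695 to 2150 CPM in adipose tissue against 632 to 2320 CPM in liver, with full overlap (adjusted p = 0.75), whereas Acsl5 was lower (-3.23 ± 0.22).

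Of 22 fatty acid synthesis genes, 6 were higher in adipose tissue and 13 lower, against 39.1% and 36% of all genes. The median log2 fold change was -0.55. The set higher in adipose tissue was fatty acid synthase (Fasn), acetyl-CoA carboxylase 1 (Acaca), the desaturases Scd1 and Scd2, and the NADPH-making enzymes G6pdx and Pgd. Fasn, Acaca and Scd1 lost their calls in the 3 pairs of batch 3, which include A53, and the parts of batch and animal cannot be told apart. There, 3 genes were called higher, and likewise 3 with a batch term in the fit, while 14 and 13 were lower. Total counts gave 9 higher and 9 lower.

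Fasn ranged most widely, from 395 CPM in A53 to 8460 CPM in A55 with a median of 3650 CPM in adipose tissue, against 547 to 1910 CPM with a median of 1370 CPM in liver. It was higher in adipose tissue in 6 of 8 animals (1.41 ± 0.42, adjusted p = 0.00976). The adipose values were 1440, 395 and 2700 CPM in batch 3 and 2640 to 8460 CPM in batch 2, and within batch 3 the log2 fold change was 0.05 (adjusted p = 0.929). In the other 5 animals the tissues were in different batches, and tissue and batch cannot be told apart there. Acaca was at 157 to 736 CPM in adipose tissue against 148 to 237 CPM in liver (1.17 ± 0.25), and at 0.62 with an adjusted p of 0.219 within batch 3. Scd1, which makes oleate and took the most counts of any gene in adipose tissue, was at 9420 to 29000 CPM (median 19400) in adipose tissue against 7610 to 16500 CPM (median 9060) in liver. It was higher in 8 of 8 animals (0.92 ± 0.25, adjusted p = 0.00539), and within batch 3 the log2 fold change was 0.64 (adjusted p = 0.343).

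The other members of the set differed by more. Scd2 was at 39.6 to 777 CPM (median 188) in adipose tissue against 10 to 15.7 CPM (median 11.9) in liver (3.78 ± 0.45, and 2.86 within batch 3). G6pdx, which opens the pentose phosphate pathway, was at 130.0 to 296 CPM (median 154) in adipose tissue against 7.2 to 11.4 CPM (median 8.44) in liver (4.26 ± 0.17, and 3.98 within batch 3), although it shares exon bases with Ikbkg. Pgd, of the same pathway, was at 136 to 409 CPM (median 184) in adipose tissue against 47.7 to 138 CPM (median 57.8) in liver (1.75 ± 0.11). The other 3 genes of the list were not called: ATP citrate lyase (Acly, 147 to 1280 CPM in adipose tissue against 362 to 759 CPM in liver, adjusted p = 0.117), Acacb (0.395) and malic enzyme (Me1, 0.178). Without A55 the fall of Acly was called (-0.65, adjusted p = 0.0228), and without A53 the rise of Me1 was (0.87, adjusted p = 0.014).

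Genes of elongation and desaturation towards longer and polyunsaturated chains were lower in adipose tissue. Elovl6, which lengthens palmitate, was at 13.7 to 114 CPM in adipose tissue against 190.0 to 469 CPM in liver (-2.8 ± 0.33). Fads2, the first desaturase of polyunsaturated synthesis, was at 13.7 to 49.2 CPM (median 17.7) in adipose tissue against 734 to 2330 CPM (median 1650) in liver (-6.05 ± 0.42), and Fads1 followed (-3.57 ± 0.2). Elovl2 was at 0 to 2.2 CPM (median 0.147) in adipose tissue against 658 to 1430 CPM (median 883) in liver (-11.64 ± 0.94, or -12.27 without A58), and Elovl3 at 0 to 0.228 CPM (median 0.0128) in adipose tissue against 47.7 to 172 CPM (median 87.6) in liver (-10.6 ± 0.46, or -11.31 without A51). Elovl5 was lower by a smaller amount (-2.87 ± 0.19). No group overlapped for these 6 genes.

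**Figure D3:**
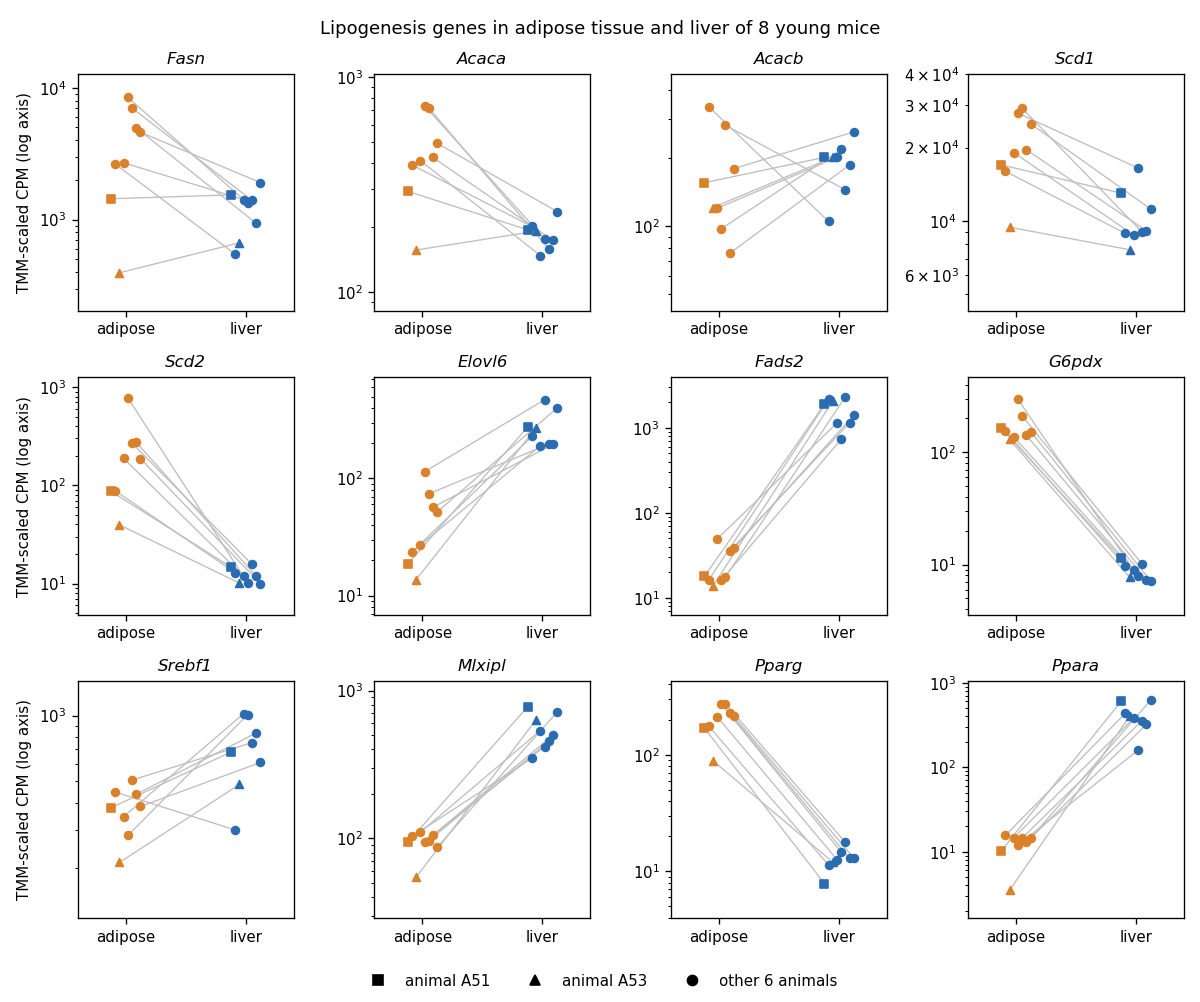
TMM-scaled CPM (log axis) of 12 lipogenesis genes in adipose tissue (orange) and liver (blue), with lines joining the 2 libraries of an animal, squares for A51 and triangles for A53. Fasn runs from 395 to 8460 CPM in adipose tissue and overlaps liver, whereas Fads2, G6pdx, Pparg and Ppara do not overlap.

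Most regulators of lipid synthesis were lower in adipose tissue. Of 24 genes, 2 were higher and 19 lower, against 39.1% and 36% of all genes. The median log2 fold change was -1.56. Within batch 3, 2 were higher and 15 lower, and total counts gave 5 and 13. The fat cell regulator Pparg was at 88.8 to 274 CPM (median 213) in adipose tissue against 7.86 to 17.7 CPM (median 12.8) in liver (3.96 ± 0.17), and Ppard at 21.8 to 38.3 CPM (median 27.9) in adipose tissue against 5.14 to 17.1 CPM (median 13.6) in liver (1.26 ± 0.25). Ppara, which drives fatty acid oxidation in liver, was at 3.5 to 15.6 CPM in adipose tissue against 158 to 617 CPM in liver (-5.06 ± 0.33).

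The main regulators that respond to insulin and glucose were lower in adipose tissue. ChREBP (Mlxipl), the carbohydrate-responsive factor, was at 54.6 to 110.0 CPM in adipose tissue against 348 to 778 CPM in liver (-2.53 ± 0.21). SREBP-1 (Srebf1) was at 213 to 507 CPM in adipose tissue against 300.0 to 1020 CPM in liver, lower in adipose tissue in 7 of 8 animals (-0.89 ± 0.24, adjusted p = 0.00602), but total counts gave 0.11. Its chaperone Scap and its retention factor Insig1 were lower by more (-2.74 and -2.35). The hepatocyte factors were near 0 in most adipose libraries. Nr0b2 was at 0 to 0.177 CPM (median 0) in adipose tissue against 23.2 to 55.3 CPM (median 28.4) in liver (-10.25 ± 0.53, or -12.77 without A51), and Foxa2 at 0 to 0.111 CPM (median 0.0262) in adipose tissue against 17.1 to 57.7 CPM (median 43.7) in liver (-9.87 ± 0.34). Hnf4a was at 0.0259 to 18 CPM (median 1.38) in adipose tissue against 368 to 1090 CPM (median 671) in liver (-9.28 ± 1.16, or -9.95 without A54, the highest adipose library). Cebpa, shared by adipocytes and hepatocytes, was at 489 to 1070 CPM in adipose tissue against 440.0 to 1310 CPM in liver (adjusted p = 0.202). Total counts called Cebpa higher (0.69, adjusted p = 0.00762).

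Of 27 genes of glucose entry, glycolysis and gluconeogenesis, 12 were higher in adipose tissue and 11 lower, near the shares of all genes (39.1% and 36%), with a median log2 fold change of 0.26. Within batch 3 the counts were 12 and 10. With total counts they were 19 and 7, beside 10820 and 2464 of all 15673 genes. The insulin-responsive transporter Slc2a4 was at 47.5 to 211 CPM (median 157) in adipose tissue against 0.713 to 9.19 CPM (median 1.97) in liver (5.83 ± 0.44), and the hepatocyte transporter Slc2a2 at 0.13 to 2.28 CPM in adipose tissue against 454 to 701 CPM in liver (-9.88 ± 0.43). Hexokinase 2 (Hk2) was at 72.5 to 104 CPM (median 91.7) in adipose tissue against 1.4 to 3.69 CPM (median 2.46) in liver (5.24 ± 0.18), whereas Gckr, which encodes a regulator of glucose phosphorylation in liver, was at 0.0281 to 0.43 CPM (median 0.0897) in adipose tissue against 148 to 354 CPM (median 208) in liver (-10.68 ± 0.41). The platelet-type phosphofructokinase Pfkp was at 39.5 to 77.7 CPM (median 49.6) in adipose tissue against 3.61 to 8.76 CPM (median 4.91) in liver (3.37 ± 0.19).

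Fructose bisphosphatase (Fbp1) was at 0.0259 to 8.02 CPM (median 1.95) in adipose tissue against 1390 to 2650 CPM (median 1730) in liver (-10.79 ± 1.39). Its value moved to -11.58 without A54, -11.48 without A57, -11.44 without A58, -10.18 without A52 or A53 and -10.14 without A55. Glucose-6-phosphatase (G6pc) was also lower (-9.8 ± 0.87). Pck1, which adipocytes use to make glycerol phosphate, was at 988 to 2280 CPM in adipose tissue against 820.0 to 6530 CPM in liver (-1.03 ± 0.32), with an adjusted p of 0.0569 within batch 3.

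Most genes of fatty acid oxidation and ketone synthesis were lower in adipose tissue. Of 24 genes, 3 were higher and 20 lower, against 39.1% and 36% of all genes. The median log2 fold change was -1.88, and within batch 3 the counts were also 3 and 20. Total counts gave 3 and 15, and turned Cpt2, Acadl, Hadh and Hadhb to 0.07, 0.29, 0.05 and 0.42, none of them called. Cpt1a, the entry gate of mitochondrial oxidation, was at 78 to 135 CPM in adipose tissue against 354 to 1100 CPM in liver (-3.03 ± 0.2). Bdh1, which interconverts ketone bodies, was at 0.15 to 1.79 CPM (median 0.645) in adipose tissue against 249 to 414 CPM (median 346) in liver (-9.14 ± 0.5), though it shares exon bases with Gm15743. Oxct1, which lets tissues outside the liver burn ketones, was at 150.0 to 306 CPM (median 229) in adipose tissue against 4.65 to 14.2 CPM (median 7.26) in liver (4.88 ± 0.21), and it shares exon bases with BC037032. The fatty acid omega-hydroxylases Cyp4a10 and Cyp4a14, targets of Ppara that have close copies, were at most 0.581 and 0.126 CPM in adipose tissue against at least 123 and 15.1 CPM in liver (-11.42 and -12.62, or -12.68 and -14.45 without A51). Pdk4, which spares glucose, was at 16.3 to 55.3 CPM (median 28) in adipose tissue against 3.4 to 9.37 CPM (median 5.21) in liver (2.47 ± 0.16).

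Ratios between related genes within a library depend little on how libraries are scaled to each other, unless a gene is near 0. There the added 0.001 CPM per kilobase sets the ratio. Of 17 pairs, 16 had no overlap between the organs, and the exception was Acaca to Acacb. The pairs were picked from the list members, and many join genes that differed in opposite directions, so that their ratios were bound to separate. No share over other pairs was computed, and the count is a description. Among all single genes, 25.8% lay wholly above liver in adipose tissue and 22.5% wholly below. Per exon kilobase, the log2 ratio of Pparg to Ppara had a median of 4.47 in adipose tissue (3.87 to 5.04) and -4.6 in liver (-5.88 to -3.06). Slc2a4 to Slc2a2 had medians of 8.87 and -7.47 in adipose tissue and liver, and Aqp7 to Aqp9 medians of 5.16 and -12.59. Some livers had no count of Aqp7, so the size of the last value depends on the added amount. Dgat2 led Dgat1 in both organs, by a median of 2.52 in adipose tissue and 5.11 in liver. Mlxipl relative to Srebf1 was lower in adipose tissue, with a median of -2.01 (-2.37 to -1.56) against -0.25 in liver (-1.24 to 0.41).

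**Figure D4:**
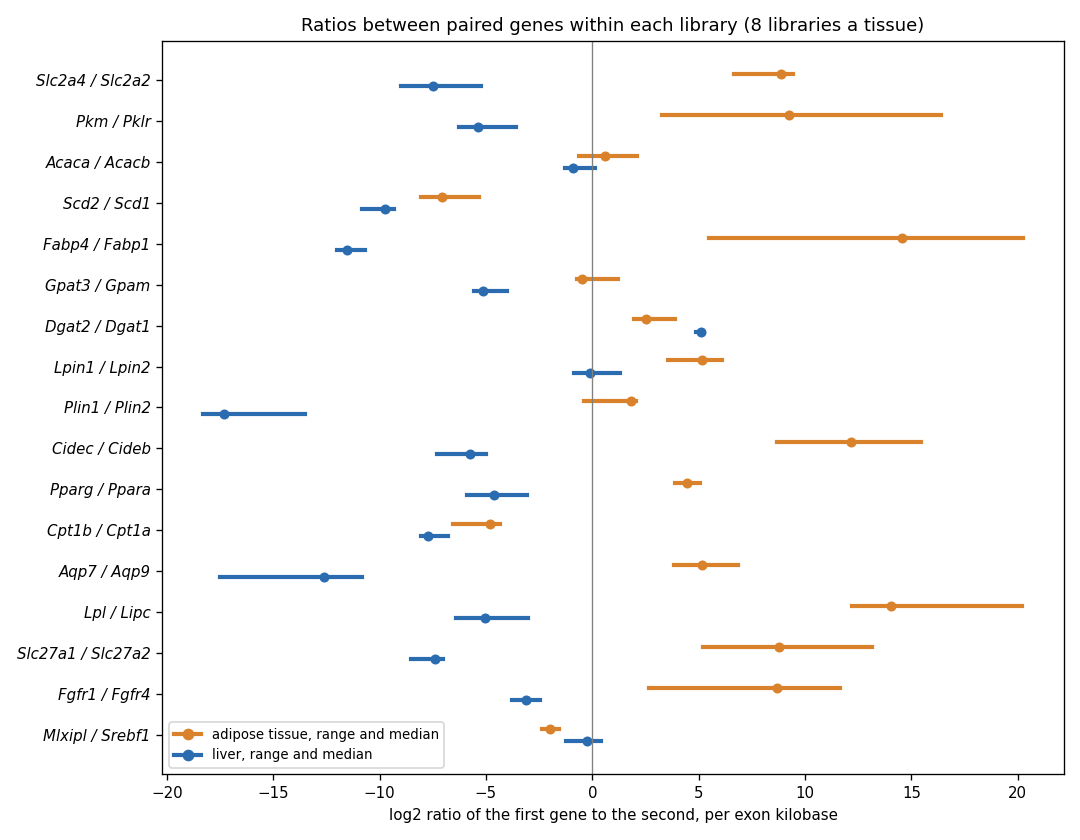
Log2 ratio of the first gene to the second per exon kilobase, with 0.001 CPM per kilobase added to each, in 8 adipose (orange) and 8 liver (blue) libraries. Lines are ranges and points medians. The ranges overlap only for Acaca to Acacb.

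Lipid export genes were lower in adipose tissue. Of 21 genes of lipoproteins and lipid export, 2 were higher in adipose tissue and 19 lower, against 39.1% and 36% of all genes. At least 8-fold falls were 18, against 8.01% of all genes, and the median log2 fold change was -10.57 (-11.22 without A51). Within batch 3, 1 was higher and 19 lower. Apob, the scaffold of liver lipoproteins, had a median of 0.166 CPM in adipose tissue (highest 12.8 CPM, in A51) against 3840 to 6680 CPM in liver (-14.46 ± 1.46). Apoa1, of high-density lipoproteins, was at 0 to 37.2 CPM (median 0.232) in adipose tissue against 9650 to 23000 CPM (median 14200) in liver (-15.29 ± 1.32), and Apoa5, which aids Lpl, at 0 to 5.56 CPM (median 0.0255) in adipose tissue against 1710 to 3850 CPM (median 2140) in liver (-14.87 ± 1.26, or -15.94 without A51). Apoe, made by many cells, was at 1130 to 2010 CPM in adipose tissue against 14600 to 39400 CPM in liver (-4.17 ± 0.27). The phospholipid transfer protein Pltp was at 179 to 254 CPM (median 218) in adipose tissue against 46.3 to 208 CPM (median 115) in liver (0.89 ± 0.21), though it shares exon bases with Ctsa. The cholesterol exporter Abca1 was at 219 to 312 CPM (median 249) in adipose tissue against 169 to 261 CPM (median 188) in liver, higher in adipose tissue in 8 of 8 animals (0.41 ± 0.12), but at 0.31 with an adjusted p of 0.171 within batch 3.

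Adipokines were mostly higher in adipose tissue. Of 29 listed, 27 were tested, and 20 were higher and 4 lower, against 39.1% and 36% of all genes. By at least 8-fold, 12 were higher and 2 lower, against 10.4% and 8.01% of all genes. The median log2 fold change was 2.15, and within batch 3 the counts were 19 and 4. Leptin (Lep), which reports fat stores to the brain, was at 182 to 1020 CPM with a median of 334 CPM in adipose tissue and had no count in any liver, which is at least 21400-fold higher against a floor of 3 counts over the 8 livers. Adiponectin (Adipoq) was at 1030 to 2490 CPM (median 1700) in adipose tissue and had 3 counts in all livers together, a ratio of 85300 (29200 to 414000), and its fitted log2 fold change of 16.12 became 17.13 without A54. Resistin (Retn) was at 466 to 1510 CPM (median 875) with 2 liver counts, a ratio of 65700 (18200 to 542000), and its fitted value of 15.61 became 17.59 without A55. Adipsin (Cfd), a complement factor of fat, was at 2500 to 6260 CPM in adipose tissue against 0 to 1.69 CPM in liver (13.24 ± 0.76). Neuronatin (Nnat) was at 569 to 1200 CPM in adipose tissue against 0.167 to 0.623 CPM in liver (11 ± 0.29).

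Some products known as adipokines had more transcript in liver. Retinol-binding protein 4 (Rbp4) was at 109 to 406 CPM (median 293) in adipose tissue against 3480 to 7280 CPM (median 4230) in liver (-4.05 ± 0.25). Vaspin (Serpina12) was at 0 to 0.354 CPM (median 0.0394) in adipose tissue against 10.8 to 240.0 CPM (median 105) in liver (-10.13 ± 0.49, or -10.77 without A51). The chemokine Cxcl12 was at 108 to 245 CPM (median 175) in adipose tissue against 333 to 660.0 CPM (median 486) in liver (-1.54 ± 0.14), and Fgf1 at 41.4 to 67.4 CPM in adipose tissue against 78.8 to 196 CPM in liver (-1.14 ± 0.16). Visfatin (Nampt) and Vegfa overlapped fully, at 117 to 332 CPM and 171 to 295 CPM in adipose tissue against 121 to 251 CPM in liver and 197 to 305 CPM in liver (adjusted p = 0.454 and 0.577). Total counts called Vegfa higher (0.91).

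Inflammatory adipokines varied widely between adipose libraries. Ccl2 was at 2.24 to 113 CPM in adipose tissue against 0.113 to 1.86 CPM in liver (3.77 ± 0.62). Tnf was at 0.249 to 12.1 CPM in adipose tissue against 0.11 to 1.37 CPM in liver (2.15 ± 0.59), with an adjusted p of 0.066 within batch 3. Leaving out A51, A52, A53 and A58 together ended the call of Tnf (1.23, adjusted p = 0.0841). Of 8 general macrophage markers, 7 were higher in adipose tissue, against 39.1% of all genes. They summed to 817 to 3050 CPM in adipose tissue against 237 to 505 CPM in liver. Of 6 markers of Kupffer cells, the liver macrophages, 1 was higher in adipose tissue, 3 were lower and 2 were not called. The shares of all genes were 39.1% higher and 36% lower. The Kupffer cell markers summed to 45.7 to 375 CPM in adipose tissue against 267 to 804 CPM in liver. The part of macrophages in the result was not tested.

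Hepatokines were nearly all lower in adipose tissue. Of 28 tested, 26 were lower and 2 higher, against 36% and 39.1% of all genes. The median log2 fold change was -4.06, and within batch 3 the counts were 24 and 1. Hepcidin (Hamp), the iron hormone, was at 0 to 3.62 CPM (median 0) in adipose tissue against 859 to 2500 CPM (median 1200) in liver (-14.37 ± 1.22, or -15.93 without A51). Fetuin A (Ahsg) was at 0.139 to 26.1 CPM (median 0.419) in adipose tissue against 7380 to 12800 CPM (median 10300) in liver (-14.29 ± 1.04), and Lect2, a chemotactic hepatokine, at 0 to 0.253 CPM (median 0) in adipose tissue against 71.6 to 264 CPM (median 107) in liver (-11.77 ± 0.65, or -14.86 without A51). Fgf21, a fasting hormone of liver, was low in both, at 0 to 0.281 CPM in adipose tissue against 0.372 to 11.7 CPM in liver (-5.22 ± 0.52).

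Hepatokine genes with clear levels in both organs were also lower in adipose tissue. Igf1, the growth factor, was at 157 to 284 CPM in adipose tissue against 666 to 876 CPM in liver (-1.56 ± 0.14), Igfbp4 at 480.0 to 925 CPM in adipose tissue against 2020 to 3620 CPM in liver (-2.3 ± 0.18), and Agt, the precursor of angiotensin, at 136 to 270.0 CPM in adipose tissue against 608 to 891 CPM in liver (-1.9 ± 0.17). Other binding proteins of Igf1 were lower by more, with Igfbp2 at 0.503 to 11.8 CPM in adipose tissue against 711 to 1920 CPM in liver (-8.04 ± 0.51) and Igfbp1 at 0 to 1.9 CPM in adipose tissue against 46 to 139 CPM in liver (-7.92 ± 0.91, or -8.64 without A54 and -8.54 without A57). Their partner Igfals was at 9.6 to 42 CPM in adipose tissue against 86 to 191 CPM in liver (-2.6 ± 0.29). Selenoprotein P (Selenop) was at 1270 to 1500 CPM in adipose tissue against 8060 to 13300 CPM in liver (-2.76 ± 0.21), though it shares exon bases with Ccdc152. The exceptions were Sparcl1, a matrix-associated protein, at 129 to 243 CPM (median 223) in adipose tissue against 6.62 to 13.1 CPM (median 10.1) in liver (4.37 ± 0.13), and Smoc1, at 194 to 357 CPM (median 269) in adipose tissue against 149 to 203 CPM (median 187) in liver (0.52 ± 0.15), with an adjusted p of 0.0996 within batch 3.

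Plasma proteins were lower in adipose tissue without exception. All 38 were lower, 35 of them by at least 8-fold, against 36% and 8.01% of all genes. The median log2 fold change was -11.78 (-13.51 without A51), and 37 were called within batch 3. The fibrinogen chains Fgb and Fgg were at 0 to 14.2 and 0 to 12.8 CPM in adipose tissue against 4230 to 12200 and 3340 to 8550 CPM in liver (-15.24 ± 1.32 and -15.25 ± 1.47). Without A51 they were at -15.87 and -15.91, and Fgg was at -15.99 without A53. Plasminogen (Plg) was at 0 to 8.47 CPM (median 0.0379) in adipose tissue against 3420 to 4350 CPM (median 3960) in liver (-15.11 ± 1.3, or -15.86 without A51), though it shares exon bases with Slc22a3. The highest adipose value of these genes was in A51 each time.

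A few plasma protein genes also had high levels in adipose tissue. Transferrin (Trf) was at 1890 to 3880 CPM in adipose tissue against 18600 to 28400 CPM in liver (-2.96 ± 0.25), and the copper oxidase ceruloplasmin (Cp) at 171 to 312 CPM in adipose tissue against 821 to 1960 CPM in liver (-2.46 ± 0.15). Haptoglobin (Hp) came closest, at 609 to 2940 CPM in adipose tissue against 2600 to 7140 CPM in liver, lower in 8 of 8 animals (-1.36 ± 0.3, adjusted p = 0.0015), but at -0.8 with an adjusted p of 0.168 within batch 3. The acute-phase gene Saa1, which has close copies, was at 0 to 0.47 CPM in adipose tissue against 24.5 to 1550 CPM in liver (-10.69 ± 0.7, or -11.57 without A51), with the highest livers in A52 (1020 CPM) and A53.

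Of 24 complement genes, 3 were higher in adipose tissue and 19 lower, against 39.1% and 36% of all genes. The median log2 fold change was -2.97. The terminal and lectin components C8a, C8b and Mbl2 were at most 3.51, 0.961 and 0.986 CPM in adipose tissue against at least 382, 241 and 339 CPM in liver (-13.76 ± 1.04, -13.52 ± 0.95 and -13.12 ± 0.98, or -14.96, -16.95 and -15.49 without A51). C3, the hub of the cascade, was at 891 to 3020 CPM in adipose tissue against 3630 to 12100 CPM in liver (-2.54 ± 0.29). The genes higher in adipose tissue were the macrophage products C1qb, C1qc and Cfp. C1qb was at 96 to 426 CPM (median 153) in adipose tissue against 49.3 to 124 CPM (median 75.8) in liver (1.15 ± 0.26), C1qc at 59.8 to 272 CPM (median 113) in adipose tissue against 46.2 to 116 CPM (median 69.5) in liver (0.77 ± 0.27), and Cfp, or properdin, at 45.9 to 172 CPM (median 63.6) in adipose tissue against 29.7 to 87.8 CPM (median 41) in liver (0.74 ± 0.26). All 3 overlapped. C1qa, the remaining C1q chain, was at 42.9 to 251 CPM in adipose tissue against 48.8 to 126 CPM in liver, higher in adipose tissue in 5 of 8 animals and not called (0.48 ± 0.31, adjusted p = 0.176). It was called within batch 3 (1.49, adjusted p = 0.0106) and without A56 (0.71, adjusted p = 0.0416). Without A51 or without A52, 1 gene of the list was called higher, and without A51, A52, A53 and A58 none was (C1qb 0.63, adjusted p = 0.0683). Without A53, C1qc had an adjusted p of 0.0529. Within batch 3, 4 were higher and 18 lower. The macrophage and Kupffer cell marker values given with the inflammatory adipokines apply here too, and the part of these cells in the result was not tested.

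Matrix genes were the list highest in adipose tissue. Of 32, 29 were higher and 3 lower, against 39.1% and 36% of all genes. Rises of at least 8-fold were 23, against 10.4% of all genes. The median log2 fold change was 3.94, and within batch 3 the counts of higher and lower genes were 28 and 3. Lysyl oxidase (Lox), which crosslinks collagen, was at 43.4 to 77.7 CPM (median 55.6) in adipose tissue against 0.0557 to 0.584 CPM (median 0.244) in liver (7.7 ± 0.36). Thrombospondin 1 (Thbs1) was at 26.8 to 495 CPM (median 73.3) in adipose tissue against 0.637 to 1.88 CPM (median 1.38) in liver (6.13 ± 0.36), with the highest value in A53, and Col15a1, of the fat cell basement membrane, at 124 to 733 CPM (median 378) in adipose tissue against 4.55 to 12.6 CPM (median 9.24) in liver (5.33 ± 0.39). The collagens Col1a1, Col3a1, Col4a1 and Col6a2 had log2 fold changes of 4.42, 4.31, 4.08 and 4.81. Markers of fibroblasts and adipocyte progenitors moved with them, 7 of 8 higher, with sums of 1600 to 2280 CPM in adipose tissue against 212 to 312 CPM in liver, and 2 of these markers, Col1a1 and Col3a1, are matrix genes themselves. Mesothelial markers were also higher, 6 of 6 (66.1 to 245 CPM in adipose tissue against 2.71 to 20.8 CPM in liver). The part of these cells was not tested.

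The matrix genes lower in adipose tissue were Spp1, Col18a1 and Fn1. Osteopontin (Spp1) was at 0.561 to 22 CPM (median 3.11) in adipose tissue against 46.3 to 203 CPM (median 80.4) in liver (-4.53 ± 0.64). Col18a1, the source of endostatin, was at 60.9 to 175 CPM (median 97.5) in adipose tissue against 525 to 1810 CPM (median 1430) in liver (-3.69 ± 0.3). Fibronectin (Fn1), which hepatocytes also secrete into plasma, was at 373 to 1530 CPM (median 517) in adipose tissue against 1150 to 2910 CPM (median 1950) in liver, lower in 8 of 8 animals (-1.71 ± 0.32), and its groups overlapped through the adipose library of A53.

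Of 22 receptors for secreted metabolic factors tested, 10 were higher in adipose tissue and 11 lower, not far from the shares of all genes (39.1% and 36%), with a median log2 fold change of -0.4. Within batch 3 the counts were 9 and 10. Total counts gave 12 and 8, beside 10820 and 2464 of all 15673 genes. Acvr1c, or ALK7, an activin receptor of fat cells, was at 58.3 to 186 CPM (median 147) in adipose tissue against 0 to 0.278 CPM (median 0.107) in liver (10.02 ± 0.39). The natriuretic peptide clearance receptor Npr3 was at 327 to 1180 CPM (median 658) in adipose tissue against 1.88 to 5.44 CPM (median 3.1) in liver (7.68 ± 0.27), and the apelin receptor Aplnr at 15.3 to 45.9 CPM (median 33.4) in adipose tissue against 0 to 0.404 CPM (median 0) in liver (8.95 ± 0.5, or 10.58 without A56). The glucagon receptor Gcgr, through which fasting reaches liver, was at 0.53 to 3.41 CPM (median 1.6) in adipose tissue against 354 to 563 CPM (median 507) in liver (-8.35 ± 0.42). Fgfr4, which senses the gut hormone FGF15, was at 0.0265 to 10.7 CPM (median 0.174) in adipose tissue against 28.6 to 78 CPM (median 65.4) in liver (-6.17 ± 1.01, or -6.93, -6.9 and -6.8 without A54, A57 or A58), and Erbb3 at 1.77 to 10.7 CPM (median 2.65) in adipose tissue against 107 to 266 CPM (median 193) in liver (-5.76 ± 0.27).

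Ligands and receptors of the same axis could lie in different organs. Lep had counts in adipose tissue and none in liver, whereas its receptor Lepr was at 2.7 to 8.65 CPM in adipose tissue against 13.2 to 61.6 CPM in liver (-2.38 ± 0.34). The adiponectin receptor Adipor1 was lower in adipose tissue (-0.46 ± 0.09), but at 0.53 with total counts, and Adipor2 was not called (adjusted p = 0.0584), with a value of 0.65 under total counts. Of the incretin receptors, Gipr was at 4.34 to 7.55 CPM in adipose tissue with 1 count in all livers, a ratio of 843 (151 to 33300) and a fitted value of 9.01 that became 10.35 without A53. Glp1r, the receptor that the study's agonist targets, was at 0 to 0.175 CPM in adipose tissue and 0 to 0.17 CPM in liver, below the filter, so that no difference was detectable at this depth.

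Levels in the other 10 tissues of the young controls, 73 libraries, were compared as medians, scaled over all 12 tissues. Among the tested members, adipose tissue had the highest median for 76 and liver for 169, and heart came next with 28. The members were chosen for adipose tissue and liver, and no share over all genes was computed, so these counts describe the choice of genes. Adipoq had a median of 2180 CPM in adipose tissue, 44.1 CPM in skeletal muscle, the highest of the other 10, and 0 CPM in liver. Lep, Retn, Cfd and Plin1 had medians of 432, 1120, 6000 and 1320 CPM in adipose tissue, against 12.7, 21, 258 and 33.7 CPM in skeletal muscle, again the highest of the 10. Lpl was close between adipose tissue (12300 CPM) and heart (9620 CPM). Fgf21 was highest in liver (4.88 CPM), with at most 0.0779 CPM in the other 10 tissues, and Ahsg stood at 13200 CPM in liver against at most 2.64 CPM in the other 10. Nampt and Vegfa were highest in heart (493 CPM) and lung (747 CPM), above both organs compared here.

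**Figure D5:**
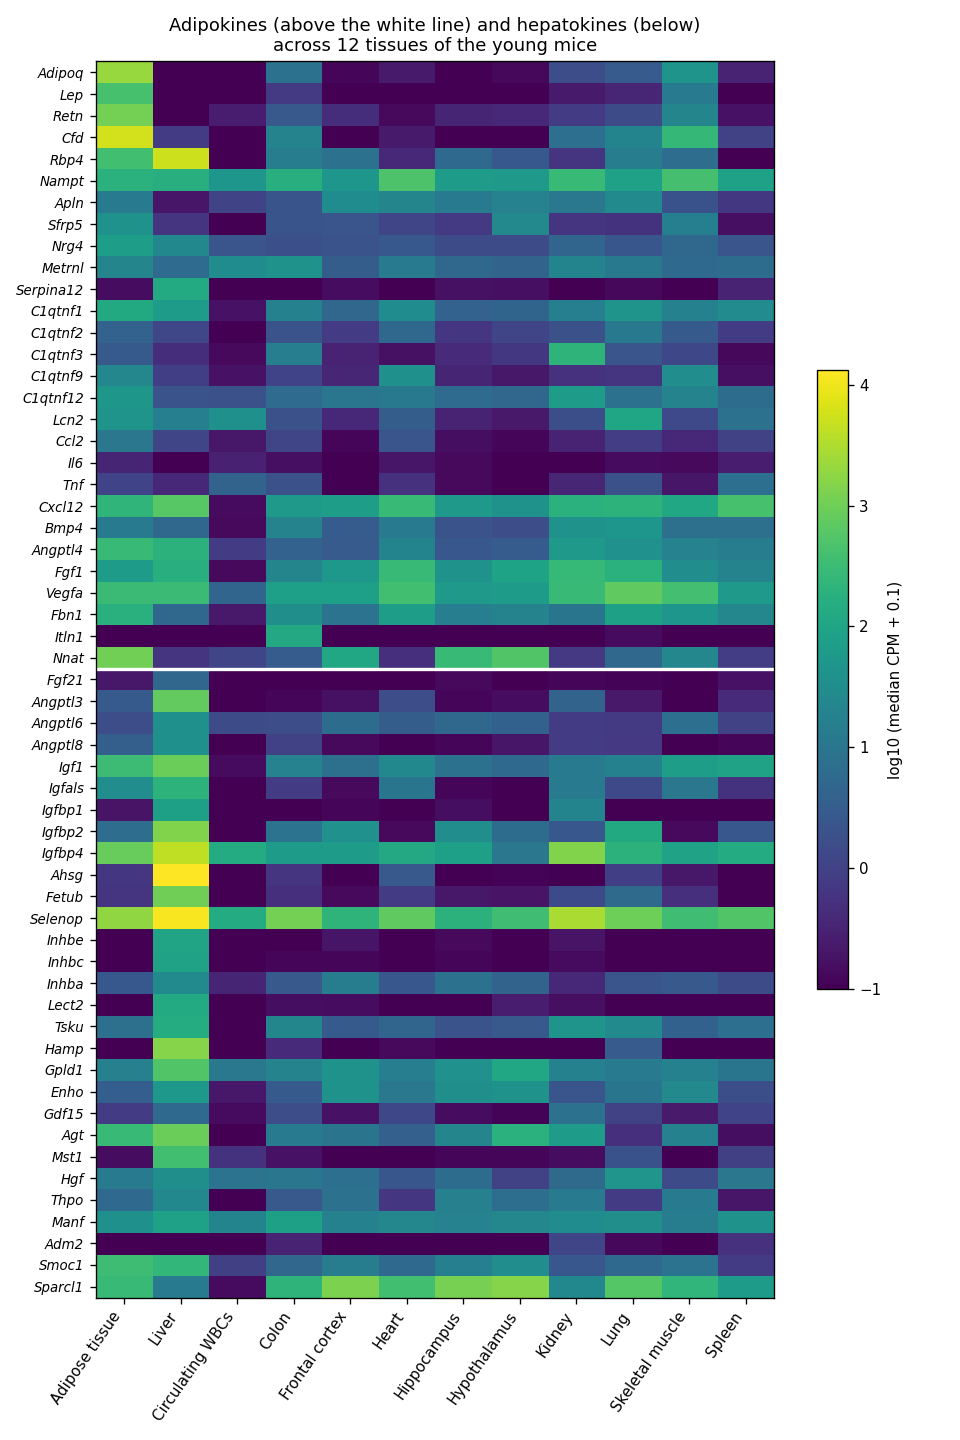
Median CPM of the adipokines (above the white line) and hepatokines (below it) reported by name, in 12 tissues of the young controls, as log10 of the median with 0.1 CPM added. Adipoq, Lep, Retn and Cfd are brightest in adipose tissue, and Ahsg, Hamp and Rbp4 in liver.

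Outside the lists, the genes with the largest rises and falls were also specific to one organ of the pair. Lgals12, a galectin of fat cell droplets, was at 181 to 380.0 CPM (median 321) in adipose tissue with no count in liver, at least 14300-fold higher. Tshr, the thyrotropin receptor, and Slc36a2, an amino acid transporter, also had no liver count, at medians of 142 and 150.0 CPM in adipose tissue, each at least 6570-fold higher. Retnla, B3galt2 and Timp4 had 1 liver count each, with ratios of 60100 (10800 to 2380000), 46300 (8310 to 1830000) and 25900 (4660 to 1020000). Their fitted log2 fold changes of 15.15, 14.8 and 13.94 became 16.49 without A58, 16.05 without A56 and 15.28 without A54.

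The largest falls outside the lists were in genes with high levels in liver. The urea cycle enzyme Cps1 was at 0.025 to 9.76 CPM (median 0.0527) in adipose tissue against 3940 to 6230 CPM (median 5380) in liver (-15.58 ± 1.18, or -16.43 without A51), and Bhmt, of methionine metabolism, at 0 to 9.4 CPM (median 0.0128) in adipose tissue against 1030 to 7800 CPM (median 2690) in liver (-15.49 ± 1.47, or -16.75 without A51). The transporter Slco1b2 was at 0 to 4.3 CPM (median 0) in adipose tissue against 1210 to 2670 CPM (median 1540) in liver (-14.68 ± 1.25, or -16.16 without A51). Ces1c, Mug1 and Akr1c6, which have close copies, had log2 fold changes of -15.1, -15.07 and -14.74, or -15.93, -15.76 and -16.4 without A51.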

How the data were processed

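Tissue kept in RNAlater was extracted with TRIzol or RNAqueous and made into poly(A) libraries with NEBNext Ultra II, per the labels' protocols. The authors deposited raw counts per gene. FastQC 0.11.9 and build GRCm39 are named in the submitters' processing notes, and the aligner, counter and annotation are not given in the sources used here. Because the kit does not mark strand, the 26 tested members that share over 10% of their exon bases with another gene, and genes with close copies, are uncertain.

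Genes low in both tissues were removed (filterByExpr), leaving 15673, and counts were scaled by TMM. The test was edgeR 4.0.16 (R 4.3.3, limma 3.58.1), a robust quasi-likelihood fit with animal and tissue as terms and Benjamini-Hochberg adjustment. The standard error (SE) is the log2 fold change divided by the root of the F statistic. The procedure was run on simulated data in which few genes differed, as many up as down. Such data do not test the scaling between organs in which most genes differ. Animals pair the libraries by their titles. The tissues' deviations correlated between -0.094 and 0.196 within animals. The liver that correlated best with an adipose library was of the same animal only for A52 and A58. The pairing therefore rests on the titles. Alternatives were DESeq2 1.42.0 (test and size factors), total counts, no filter, no pairing, a batch term, batch 3 alone, batch 2 adipose tissue, and leaving out animals. Ratios against 1 to 3 liver counts have exact 95% intervals and bounds a floor of 3 counts over the 8 livers, which cover counting error only.

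Genes were named by rule: in each list up to 3 called members with the largest rise and 3 with the largest fall and an average log2 CPM of at least 3, and outside the lists the 6 largest rises and 6 largest falls at an average of at least 6, leaving out predicted genes and large multicopy families. Other members were named as examples after their values were seen. The members and lists were chosen with earlier results of these data known. Members that are not named count in their lists, and a few results are not reported here.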

Additional observations from a re-analysis of the deposited data

Results flagged for a closer look

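For the genes named by rule, the highest or lowest of 8 libraries was set against the range of its tissue, and a gap over 0.526 of that range marked it as far from the others. This marked 51 of 184 groups of values, 30 in adipose tissue and 21 in liver. The cutoff is meant to mark about 1 in 20 groups of normally spread values. Many of these genes were near 0 CPM in 1 tissue, and for Retnla, B3galt2 and Timp4, with 1 count in all livers, the mark was certain. The number marked therefore cannot be set against that share.

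The adipose tissue library of A51 was the highest for 24 genes, with Hsd17b13 at 1.44 CPM, Fabp1 at 15.4 CPM, Slc27a5 at 2.91 CPM, Nr0b2 at 0.177 CPM, Cyp4a14 at 0.126 CPM, Cyp4a10 at 0.581 CPM, Apoa1 at 37.2 CPM, Apoa5 at 5.56 CPM, Apob at 12.8 CPM, Hamp at 3.62 CPM, Ahsg at 26.1 CPM and Lect2 at 0.253 CPM. It also held Fgg at 12.8 CPM, Fgb at 14.2 CPM, Plg at 8.47 CPM, C8a at 3.51 CPM, C8b at 0.961 CPM, Mbl2 at 0.986 CPM, Cps1 at 9.76 CPM, Bhmt at 9.4 CPM, Ces1c at 7.56 CPM, Mug1 at 10.2 CPM, Akr1c6 at 6.42 CPM and Slco1b2 at 4.3 CPM. Albumin was at 254 CPM in the same library, and the part of liver RNA in these values was not tested. Among the adipose libraries, A53 was highest for Cfp at 172 CPM, Thbs1 at 495 CPM and Fn1 at 1530 CPM. Among the adipose libraries, A53 was lowest for Plin1 at 353 CPM. Among the adipose libraries, A54 was highest for Hnf4a at 18 CPM. Among the adipose libraries, A55 was highest for Scd2 at 777 CPM. Among the livers, A52 was highest for Oxct1 at 14.2 CPM, Abca1 at 261 CPM, Fgg at 8550 CPM, Fgb at 12200 CPM and Ces1c at 3840 CPM. Among the livers, A52 was lowest for Fgfr4 at 28.6 CPM. Among the livers, A54 was highest for Timp4 at 0.0531 CPM. Among the livers, A55 was highest for Aqp7 at 0.291 CPM, Mogat1 at 1.69 CPM, Pgd at 138 CPM, Fbp1 at 2650 CPM, Retn at 0.116 CPM, Rbp4 at 7280 CPM, Hamp at 2500 CPM, Lect2 at 264 CPM, Akr1c6 at 3190 CPM and Slco1b2 at 2670 CPM. Among the livers, A56 was highest for Nr0b2 at 55.3 CPM, Aplnr at 0.404 CPM and B3galt2 at 0.0576 CPM. Among the livers, A58 was highest for Retnla at 0.0567 CPM.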

How the results depend on the processing

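The calls of members kept their direction in each fit except that with total counts, which kept the direction of 310 of 333 and called 11 the opposite way. The cause of the changes below was not tested beyond the shift of the median of all genes to 1.05. Total counts called 10820 genes higher in adipose tissue and 2464 lower, and 2754 higher at 8-fold, against 2828 without the filter on low counts. Under total counts 5 droplet protein genes were lower, 13 triglyceride synthesis genes higher, 5 regulators higher, 19 glucose genes higher and 7 lower, and 5 complement genes higher. Log2 fold changes below 0 that total counts turned positive were Plin3 0.48, Rab18 0.63, Ldah 0.76, G0s2 0.84, Ces1d 0.68, Gpam 0.54, Gpat4 0.48, Lpin3 0.68, Fabp5 0.75, Slc27a4 0.42, Lrp1 0.18, Elovl1 0.6, Slc25a1 0.35, Hsd17b12 0.57, Srebf1 0.11, Srebf2 0.31, Insig2 0.08, Nr1h3 0.08, Cebpa 0.69, Usf1 0.26, Gpi1 0.44, Pfkm 0.32, Insr 0.27, Cpt2 0.07, Acadl 0.29, Hadh 0.05, Hadhb 0.42, Scarb1 0.05, Vegfa 0.91, C2 0.81, Adipor1 0.53, Adipor2 0.65.

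With a batch term, 3 fatty acid synthesis genes, 1 regulator, 1 lipoprotein gene and 1 hepatokine were called higher, and batch 3 alone gave 3, 1 and 1 for synthesis, lipoproteins and hepatokines. Batch 2 adipose tissue gave 1 higher complement gene. Leaving out A51, A52, A53 and A58, chosen after seeing the data, gave 1 higher hepatokine and 0 higher complement genes by edgeR. Leaving out 1 animal gave 5901 to 6178 genes higher, 5357 to 5656 lower, and 1 to 4 complement genes higher. Without the replicate block, 6267 genes were higher and 5760 lower, and of the called members Gpam (-0.43) and Slc25a1 (-0.52) lost their calls.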
